A study of Mus musculus with 63 samples.

Results

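Liver RNA of male mice with an induced deletion of Hcfc1 was compared with that of control males on days 10, 11 and 12 after the start of tamoxifen. The rule took the 3 knockout (KO) and the 3 control (WT) libraries of those days, 1 of each genotype per day, which are 6 of the 63 libraries of the series. The KO mice had the genotype Hcfc1 hepKO/Y, a lox-flanked Hcfc1 on their single X chromosome together with a transgene for Alb-Cre-ERT2, a Cre recombinase that tamoxifen activates and that the albumin promoter restricts mainly to hepatocytes. The genotype label of the WT males is C57BL/6, whereas the protocol describes controls as Hcfc1 lox/Y males lacking the Cre transgene, so Cre itself differs between the genotypes. Both genotypes were 10 to 14 weeks old, were injected with 1 mg of tamoxifen on days 0, 1 and 2, were fed breeder chow and were killed in the early light phase. Each library came from 1 mouse, so mouse and day cannot be told apart within a genotype. The whole series followed 26 KO and 25 WT male livers from day 0 to day 14, with 12 livers of heterozygous females that are not used here. The libraries were made from poly(A) RNA with a strand-specific kit, and the deposited value of a gene is the log2 of its RPKM, the reads scaled by exon length and by sequencing depth.

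HCF-1, the protein made from Hcfc1, does not bind DNA by itself. It is brought to promoters by sequence-specific factors, among them THAP11, ZFP143, GABP, E2F factors and YY1, and joins them to enzymes that modify histones, including the SET1 and MLL methyltransferases and BAP1. Its known promoter partners sit near the starts of many genes for mitochondrial, ribosomal and cell cycle proteins. Adult hepatocytes rarely divide and carry most of the liver's metabolic and secretory work, while duct cells, stellate cells, macrophages and endothelial cells make up most of the rest.

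The 6 libraries held an estimated 18.1 M (WT day 12) to 47.0 M (KO day 10) reads in genes. The 8 hepatocyte markers summed to 81471 to 95244 RPKM in WT and 37500 to 43388 in KO, so all 6 libraries carried the labelled tissue. Alb alone (59527 to 71644 RPKM in WT, 4349 to 6108 in KO) fell by more than the sum did. Trf was higher in KO (18786 to 19687 RPKM, against 8545 to 9051 in WT). By the test described below, 3 of the 8 were lower and 1, Trf, was higher. Pancreas and adipose markers summed to at most 1.14 RPKM in any of the 6, and Pnlip, Ctrb1 and Plin1 were listed at 0 in all of them. The WT library of day 10 stood apart from the other WT libraries. In it 318 genes lay at least 2-fold above both other WT livers, against 53 for each of days 11 and 12, and the 4 neutrophil markers found in the table summed to 112 RPKM against 14.7 and 15.7. The 3 KO libraries had 121, 60 and 152 such genes on days 10, 11 and 12. Values of a list without this library are given beside it where they moved a count or a median by over 1.5 times.

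Hcfc1 itself (chromosome X, 71188131 to 71211696, minus strand, mm9) had 9.87, 8.06 and 8.43 RPKM in WT on days 10, 11 and 12 and 25.5, 21.6 and 23.3 in KO. All KO libraries lay above all WT libraries, and the log2 difference was 0.97 ± 0.16 (adjusted p = 1.4e-05). On day 0 the 2 WT livers had 4.07 and 4.50 RPKM and the 2 KO livers 4.60 and 5.58. One value per gene covers exons inside and outside the deleted segment together, so this level does not measure the deletion.

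Of 12222 tested genes, 6881 (56.3%) differed between KO and WT at an adjusted p under 0.05, by limma on values centred on each library's median, where 3745 (30.6%) were higher in KO and 3136 (25.7%) lower. At least a 2-fold change was seen for 1214 (9.93%) of the higher and 1240 (10.1%) of the lower genes. The 3 KO livers lay wholly above the 3 WT livers for 3850 genes (31.5%) and wholly below for 3235 (26.5%), together 58.0% of the tested genes. The median gene of the deposited values was 0.448 higher in KO on the log2 scale, and without centring 6426 genes (52.6%) were higher and 1350 (11.0%) lower. For that reason rises and falls refer to the median gene, with counts on the deposited scale beside those of the lists. The counts of each list are to be read against the 30.6% and 25.7% of all tested genes. The deposited scale adds the same 0.448 to the difference of every gene. A rise after centring could therefore hardly fail on it, and all 3745 passed on both scales, which is no separate check. Of the falls, 1350 passed on both scales. The difference had the same sign on all 3 days for 6588 of the 6881 genes (95.7%). With the 6 libraries fitted alone, 2844 of the rises (23.3% of tested genes) and 2369 of the falls (19.4%) also passed. Without the WT library of day 10 there were 3440 rises and 3197 falls. Numbers after ± are standard errors of the log2 difference, KO minus WT. The spread behind them comes from days with replicates (0 to 9, and 14 for KO), and the lone libraries of days 10 to 12 are assumed to vary alike. The p values measure only the spread between same-day livers of a genotype in this series. Any library difference between those livers is part of that spread. The WT livers of day 1, for example, had 50.4 and 28.7 M reads in genes. The samples also carry tags whose meaning is not given, and all 6 libraries of days 10 to 12 share the same tag.

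Among the 12 largest rises were a growth factor, detoxifying enzymes, transporters and a lipid droplet protein. Nrg1 (mm9, chromosome 8, 32928500 to 33119581, minus strand), a ligand of the ERBB receptors, had 0.176, 0.0397 and 0.134 RPKM in WT and 10.8, 17.7 and 19.9 in KO. The KO values lay above all WT values, and the difference was 6.87 ± 0.57 (adjusted p = 3.07e-10). Abcc12 (mm9, chromosome 8, 89006159 to 89104585, minus strand), a transporter of the ABC family, stood at 0.13, 0.0647 and 0.14 RPKM in WT and at 9.14, 13.7 and 15.2 in KO, a rise of 6.42 ± 0.39 (adjusted p = 1.82e-12). Ly6d, a membrane-anchored surface protein, had 5.74, 2.46 and 2.93 RPKM in WT and 162, 279 and 392 in KO. Its KO values were highest on day 12, and no WT liver came near them (5.78 ± 0.43, adjusted p = 5.58e-11). Gsta1, a glutathione transferase, went from 3.91, 2.37 and 3.63 RPKM in WT to 249, 507 and 461 in KO (6.46 ± 0.64, adjusted p = 5.69e-09). The neighbouring gene models Gm3776 (6.60) and Gm10639 (5.78) rose by similar amounts, but these 3 genes lie in a cluster of near-identical copies and the share of reads that belongs to each is uncertain.

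Akr1c18, an enzyme that inactivates progesterone, measured 1.81, 0.315 and 0.559 RPKM in WT and 37.1, 47.4 and 117 in KO (5.98 ± 1.58, adjusted p = 0.00238). Cidec, which enlarges lipid droplets by fusing them, had 0.0726, 0.049 and 0.247 RPKM in WT and 3.38, 5.13 and 14.8 in KO. Both genes were highest in the KO liver of day 12, and both groups stayed apart (5.60 ± 0.67 for Cidec, adjusted p = 1.43e-07). Bhlha15, a transcription factor of secretory cells, rose from 0.15, 0.143 and 0.0603 to 6.94, 10.8 and 10.1 RPKM (5.93 ± 0.55, adjusted p = 2.41e-09). Bmp8b, a secreted factor of the BMP family, was at 0.021, 0.0142 and 0.0239 RPKM in WT, where a few reads set the value, and at 1.81, 2.58 and 8.44 in KO (7.01 ± 1.91, adjusted p = 0.00307). Nup62cl, related to the nucleoporin NUP62, showed the same pattern with 0.027, 0.0365 and 0.0614 against 3.53, 6.08 and 13.6 RPKM (6.95). H2-Q2, a class I histocompatibility gene with close copies, stood at 0.206, 0.0379 and 0.0638 RPKM in WT and 5.7, 8.36 and 11 in KO (6.22).

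The 12 largest falls held genes of vitamin, lipid and amine metabolism, along with genes whose role in hepatocytes is less well described. Mmachc (mm9, chromosome 4, 116374884 to 116381011, minus strand), which processes vitamin B12 inside the cell, had 9.03, 8.17 and 7.52 RPKM in WT and 0.305, 0.622 and 0.518 in KO. Its groups were far apart, with a difference of -4.60 ± 0.26 (adjusted p = 4.14e-13). 0610011F06Rik, listed by RefSeq as Mettl26, fell from 63.6, 78.1 and 88 RPKM to 2.32, 2.3 and 1.47 (-5.70 ± 0.27, adjusted p = 2.63e-14). Macrod1 (mm9, chromosome 19, 7131258 to 7272551, plus strand), which removes ADP-ribose from proteins, had 13.8, 16.8 and 21.8 RPKM in WT and 1.52, 0.598 and 0.669 in KO (-4.79 ± 0.25, adjusted p = 1.42e-13). Apom, an apolipoprotein of HDL particles, was an abundant transcript in WT with 446, 353 and 387 RPKM and stood at 13.7, 13.4 and 26.7 in KO (-4.98 ± 0.41, adjusted p = 2.5e-10). Cyp4a14, a fatty acid hydroxylase induced by PPAR-alpha, had 34.2, 62.1 and 113 RPKM in WT and 6.76, 2.65 and 1.21 in KO. Its WT level was highest and its KO level lowest on day 12 (-4.92 ± 0.85, adjusted p = 2.75e-05).

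C730036E19Rik, a long noncoding RNA that RefSeq also names lncLSTR and that is known from mouse liver, had 15.4, 23.9 and 15.3 RPKM in WT and 3.77, 1.43 and 0.192 in KO (-4.59 ± 0.47, adjusted p = 9.89e-09). Sult3a1, a sulfotransferase acting on amines, measured 15.6, 19.3 and 25.3 RPKM in WT and 1.12, 0.148 and 0.0922 in KO (-6.76 ± 2.21, adjusted p = 0.0116), and its call was lost without day 11 or without day 12. Prtn3, a serine protease best known from neutrophil granules, had 83, 28.7 and 18.9 RPKM in WT and 1.55, 1.4 and 0.462 in KO (-5.60 ± 0.90). It was highest in the WT library of day 10, as were the summed neutrophil markers, and its call held without that library. The transcripts of Ctf1, a cytokine of the interleukin 6 family, and Plekhb1, a protein with a lipid-binding domain, also fell (-4.66 and -4.55). Krt4, a keratin, had 14.3, 5.31 and 8.11 RPKM in WT and 0.754, 0.772 and 0.047 in KO (-5.27 ± 0.61). Oxtr, the oxytocin receptor, went from 4.33, 4.12 and 1.8 to 0.188, 0.743 and 0.0221 RPKM (-4.89 ± 1.86). The Oxtr call (adjusted p = 0.0284) was lost when the WT library of day 10, that of day 11 or the KO library of day 12 was left out.

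**Figure D1:**
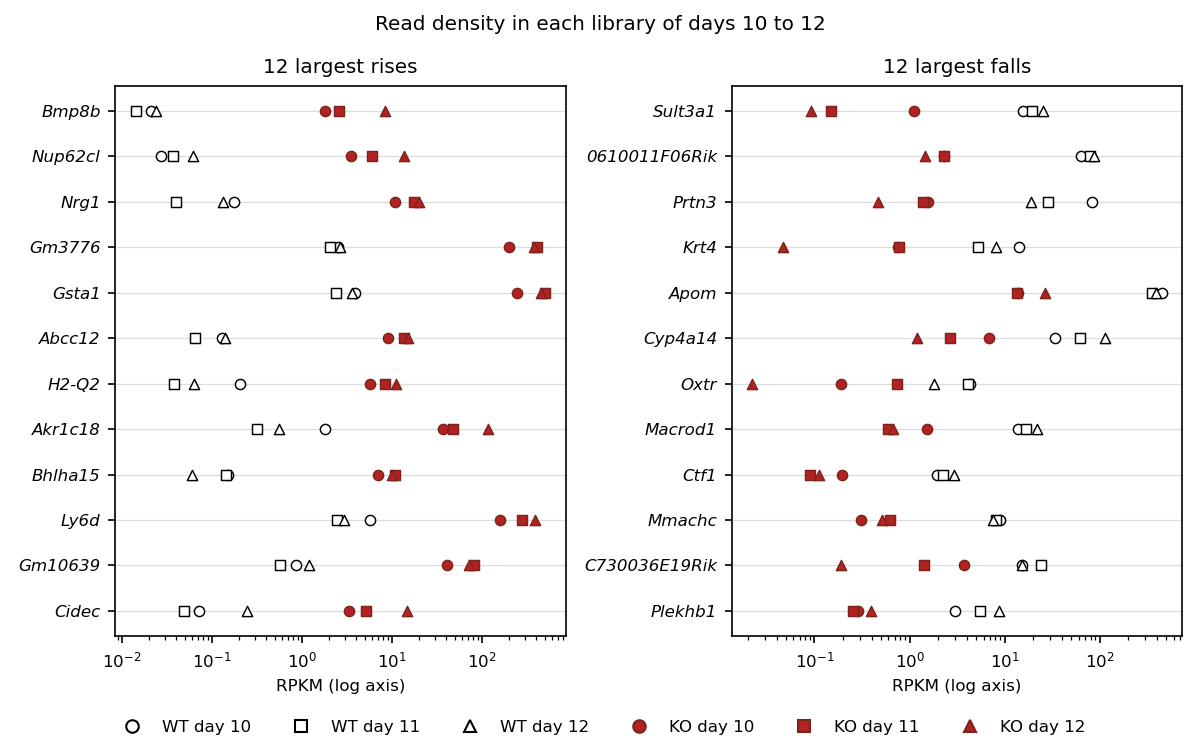
Read density (RPKM, log axis) of the 12 largest rises and the 12 largest falls in each of the 6 libraries; open symbols are WT, filled symbols KO, and the shape gives the day. For all 24 genes the 3 KO livers lie wholly on one side of the 3 WT livers; the genes were picked for the size of their difference.

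Several genes were listed at 0 in part of the libraries and are given as levels. They were picked among called genes for their high level in KO or in WT, so a gap between the groups follows from the choice. Gpx2, a glutathione peroxidase known from gut epithelium, was at 0.0577, 0 and 0 RPKM in WT and at 5.48, 16 and 6.79 in KO. Slc1a1, a glutamate transporter, had 0, 0.0113 and 0.0189 in WT and 4.97, 8.03 and 7.39 in KO, and Tinag, a matrix protein of kidney tubules, had 0.217, 0 and 0 and 5.03, 5.47 and 7.63. Popdc3 and Ly6k likewise stood at 2.81 to 7.07 RPKM in the KO livers and at 0.160 or less in every WT liver. In the other direction Nat1, an arylamine acetyltransferase, had 1.44, 1.05 and 0.99 RPKM in WT and 0.0245, 0.06 and 0 in KO. Lcn12, a lipocalin, had 3.56, 2.8 and 1.7 in WT and 0.666, 0 and 0.136 in KO, and its call was lost without day 11. The long noncoding RNA Gm15401 had 0.723, 2.7 and 2.3 RPKM in WT and 0.124, 0 and 0.236 in KO, and AI463170, another one, had 1.67, 0.932 and 1.57 in WT and 0.246, 0 and 0.282 in KO. With the 6 libraries fitted alone and day as a block, neither of them (adjusted p = 0.0756 and 0.0747) nor Lcn12 (0.0712) passed. The small nucleolar RNA Snora16a (0.686, 1.85 and 2.08 against 0.735, 0 and 0) overlapped between the groups, and its short transcript gives few reads at such levels.

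Among mitochondrial genes a small number of subunits and assembly factors fell steeply, while most members changed by less than 2-fold. The complex I list lay below the median gene. Of 44 tested genes for complex I, the NADH dehydrogenase of the respiratory chain, 22 fell and 3 rose (median -0.39, against 0.09 over all tested genes). On the deposited scale 6 of the 44 were lower and 15 higher, so most of the falls passed the threshold only after centring. Without the WT library of day 10 there was 1 rise. Ndufa3, an accessory subunit, had 111, 102 and 104 RPKM in WT and 9.95, 11.7 and 10.9 in KO. The values within each genotype were close together and far from the other genotype (-3.74 ± 0.23, adjusted p = 2.48e-12). Ndufa13, another accessory subunit, went from 68.5, 64.7 and 65.9 to 11.9, 11.1 and 11.2 RPKM (-2.99 ± 0.20). The assembly factor Ndufaf3 stood at 6.42, 5.12 and 7.59 RPKM in WT and 1.18, 0.741 and 1.11 in KO (-3.12 ± 0.28), and Ndufb10 at 103, 98.2 and 103 and 44.2, 36.8 and 32.6 (-1.88 ± 0.17). These 4 were lower in KO on both scales, with each KO liver below each WT liver.

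Among 52 genes of complexes II to V, 17 fell and 6 rose (median -0.15, or -0.07 without the WT library of day 12; 11 lower and 21 higher on the deposited scale). Atp5d, the delta subunit of ATP synthase, had 146, 130.0 and 141 RPKM in WT and 19.2, 17.9 and 20.6 in KO (-3.30 ± 0.19, adjusted p = 9.81e-13). Uqcr10, a small subunit of complex III, went from 138, 121 and 141 to 14.7, 19.1 and 21.5 RPKM (-3.31 ± 0.20). The assembly factors Surf1 of complex IV (-2.23 ± 0.11) and Bcs1l of complex III (-1.83 ± 0.11) fell as well, while Cox10, Cox15, Cox17, Cox18 and Sco1, which also serve complex IV assembly, rose. In the mitochondrial ribosome 29 of 76 genes rose and 16 fell (median 0.20, with 52 and 9 on the deposited scale). That is 59.2% called, near the 56.3% of all tested genes. The median was 0.10 without the WT library of day 10 and 0.11 without the KO library of day 12. Mrpl34 had 21.9, 21.5 and 18.2 RPKM in WT and 2.59, 2.62 and 1.9 in KO (-3.57 ± 0.19, adjusted p = 1.42e-13). Mrpl54 (-3.01 ± 0.14) and Mrpl24 (-2.88 ± 0.16) fell by similar amounts, whereas Mrpl19 rose from 2.88, 2.81 and 2.72 to 12.7, 14.7 and 19.4 RPKM (2.01 ± 0.09, adjusted p = 1.36e-14).

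Mitochondrial chaperones and proteases mostly rose, with 16 of 26 higher and 3 lower (median 0.37; 22 and 2 on the deposited scale). The protease Lonp1 climbed from 49.7, 46.4 and 48.2 to 110.1, 165 and 212 RPKM (1.26 ± 0.09), highest on day 12, and the import cofactor Grpel1 rose by 1.12 ± 0.11. The disaggregase Clpb (6.42, 6.54 and 7.14 against 0.876, 0.9 and 1.33 RPKM, -3.17 ± 0.26) and the membrane scaffold Phb (46.1, 43.1 and 46.3 against 26.9, 26.3 and 27.9 RPKM, -1.19 ± 0.15) fell. In fatty acid oxidation 6 of 29 genes rose and 7 fell, 44.8% against 56.3% of all tested genes. The median was 0.02, with 13 rises and 3 falls on the deposited scale. Etfdh, on this list, had the smallest p of all named genes. It passes electrons from fatty acid oxidation to ubiquinone, and it had 111, 109 and 130.0 RPKM in WT and 31.8, 27.4 and 27.2 in KO (-2.47 ± 0.10, adjusted p = 3.41e-15). Slc25a20, the carnitine carrier, also fell (-1.15 ± 0.13), as did Crat, a carnitine acetyltransferase (-0.88 ± 0.14), while Hadha, a subunit of the trifunctional protein, rose (0.64 ± 0.12). The Crat call was lost with the 6 libraries alone (adjusted p = 0.0735). Without the WT library of day 10 the falls among these 29 genes numbered 12 and the median was -0.22.

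**Figure D2:**
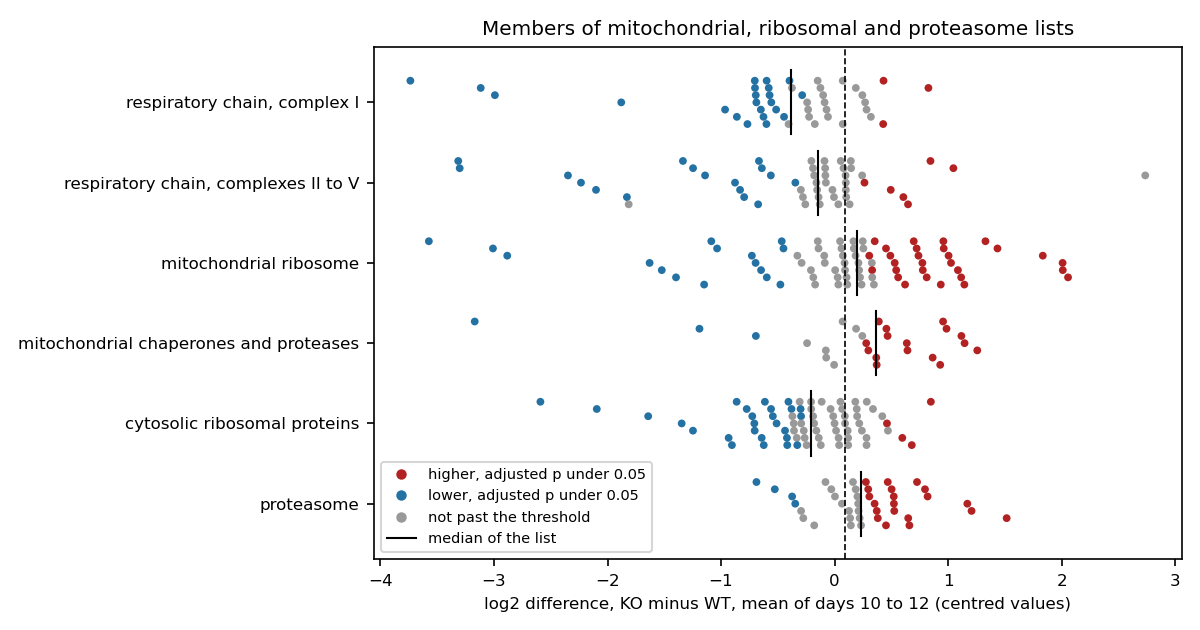
Log2 difference, KO minus WT, averaged over days 10 to 12, for each tested gene of 6 lists; red and blue points passed the threshold, black bars mark list medians and the dashed line the median of all tested genes (0.09). List medians run from -0.39 (complex I) to 0.37 (mitochondrial chaperones and proteases). The lists of the respiratory chain and the mitochondrial ribosome have a tail of steep falls that reaches -3.74 at Ndufa3.

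The promoters of these genes were searched for the core of the site that THAP11 and ZFP143 are known to bind, ACTACAA followed by any 1 base and TCC, on both strands. RefSeq promoter sequences of GRCm38.p6 (250 bases before to 50 after the start) were matched for 9702 tested genes, of which 263 (2.71%) held the letters. Among genes that fell at least 4-fold the share was 41 of 264 (15.5%), and among those that fell at least 2-fold 84 of 993 (8.46%). It was 15 of 947 (1.58%) among genes that rose at least 2-fold, 4 of 270 (1.48%) among those that rose at least 4-fold, and 87 of 4167 (2.09%) among genes not called. Of genes lower on both scales 84 of 1089 (7.71%) held it. Seen from the promoters, 127 of the 263 genes (48.3%) fell and 49 (18.6%) rose, against 26.2% and 30.8% of all genes with a promoter. On the deposited scale 84 of the 263 were lower and 99 higher. No promoter was tested for binding, and most steep falls lacked the letters: none of the 10 matched promoters among the 12 largest falls held them. In genes that fell at least 4-fold the match began a median of 74 bases before the start, between position -230 and position 17.

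The sites of the named genes that fell are shown with 15 bases on each side, written 5′ to 3′ along the gene's strand with the matched letters in capitals, in order of the size of the fall. Sequences and coordinates are RefSeq's for GRCm38.p6. In Uqcr10 the match lies on the other strand and reads as its reverse complement.
Ndufa3 (chr7:3617273-3617313, plus strand): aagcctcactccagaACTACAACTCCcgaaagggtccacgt
Mrpl34 (chr8:71464708-71464748, plus strand): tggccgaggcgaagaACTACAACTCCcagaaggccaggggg
Uqcr10 (chr11:4704549-4704589, minus strand): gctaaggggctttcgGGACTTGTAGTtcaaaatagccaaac
Atp5d (chr10:80142178-80142218, plus strand): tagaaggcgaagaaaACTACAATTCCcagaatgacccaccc
Mrpl24 (chr3:87919392-87919432, plus strand): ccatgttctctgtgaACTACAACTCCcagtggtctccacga
Etfdh (chr3:79628919-79628959, minus strand): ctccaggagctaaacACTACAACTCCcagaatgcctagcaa
Hcfc1r1 (chr17:23673545-23673585, plus strand): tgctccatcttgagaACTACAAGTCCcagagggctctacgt
Slc27a4 (chr2:29802552-29802592, plus strand): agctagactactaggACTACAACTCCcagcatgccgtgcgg
Prim1 (chr10:128015117-128015157, plus strand): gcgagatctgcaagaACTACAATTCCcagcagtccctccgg
Phb (chr11:95666732-95666772, plus strand): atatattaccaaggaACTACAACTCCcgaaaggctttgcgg

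In 7 of these 10 the match was followed by CAG when read along its own strand. The whole promoter of Ndufa3, the steepest fall of the 10, shows the site in its longer context.
Ndufa3 (chr7:3617123-3617422, plus strand): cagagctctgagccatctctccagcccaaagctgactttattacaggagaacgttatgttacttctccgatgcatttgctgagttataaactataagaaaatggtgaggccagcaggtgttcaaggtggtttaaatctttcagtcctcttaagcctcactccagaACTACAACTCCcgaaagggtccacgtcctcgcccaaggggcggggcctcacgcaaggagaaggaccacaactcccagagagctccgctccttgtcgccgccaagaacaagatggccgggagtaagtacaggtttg

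Within the respiratory chain and mitochondrial ribosome lists the letters marked a minority of the falls. They stood in 1 of 21 complex I genes that fell and had a promoter entry, in 2 of 17 for complexes II to V, and in 3 of 14 for the mitochondrial ribosome. Among the genes of these 3 lists that were not called, 0 of 16, 1 of 20 and 0 of 28 held them. Other motifs were searched the same way. CCGGAAGT, a core bound by GABP, stood in 9.12% of all promoters, 4.17% of those of genes that fell at least 4-fold and 2.96% of those that rose as much. TGANTCA, the AP-1 core, stood in 6.71% of all, 7.58% of the 4-fold falls and 12.2% of the 4-fold rises. TTTCCCGC (E2F) was in 2.26%, 1.89% and 1.48% of these groups, TGACGTCA (CRE) in 3.51%, 2.65% and 5.19%, and TGAC followed by any 3 bases and GCA (NRF2) in 3.38%, 3.79% and 3.33%. The NRF2 letters can overlap TGANTCA, and the shares are descriptions without a test.

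**Figure D3:**
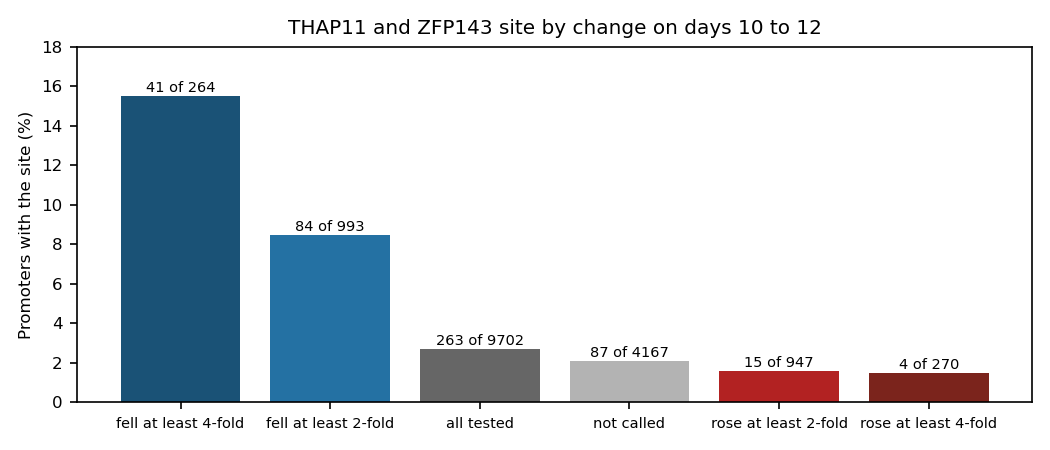
Share of promoters (%) that hold the THAP11 and ZFP143 core, by how their genes changed on days 10 to 12; numbers above the bars give promoters with the core of promoters searched. The share is 15.5% among genes that fell at least 4-fold, 2.71% among all tested genes and 1.48% among genes that rose at least 4-fold.

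Of the genes for HCF-1 and its partners, 13 of 28 rose and 6 fell (median 0.33; 16 and 1 on the deposited scale). Zfp143 had 3, 2.26 and 2.52 RPKM in WT and 10.5, 10 and 9.42 in KO (1.50 ± 0.10, adjusted p = 4.29e-12). Yy1 went from 16, 13.7 and 16 to 53.9, 52.4 and 52.1 RPKM (1.35 ± 0.08), and Gabpb1, a subunit of GABP, from 9.89, 7.51 and 8.8 to 20.4, 20.9 and 21.7 (0.83 ± 0.09). In each of these the KO values were tight and lay far above WT. Hcfc1r1, whose product binds HCF-1 and moves it out of the nucleus, fell from 19, 18.4 and 18.9 RPKM to 4.79, 6.54 and 4.83 (-2.26 ± 0.13, adjusted p = 6.9e-13), and its site is among those shown above. The other falls, Sp1, E2f1, Ogt, Ash2l and Asxl1, passed only after centring.

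Cytosolic ribosomal protein genes were lower relative to the median gene, with 26 of 71 lower and 4 higher (median -0.21, -0.10 without the KO library of day 10 and -0.33 without that of day 12), but on the deposited scale 33 were higher and 9 lower. Without the KO library of day 12 the rises numbered 1. A few fell on both scales. Rplp1, a stalk protein of the large subunit, had 714, 504 and 528 RPKM in WT and 122, 134 and 135 in KO (-2.59 ± 0.22, adjusted p = 6.96e-10), and Rpl23a had 219, 197 and 202 and 65.9, 61.5 and 70.3 (-2.09 ± 0.16). Rpl12 (-1.64 ± 0.13) and Rpl3 (-1.35 ± 0.12) followed. Many ribosomal proteins have processed pseudogenes, and how their reads were assigned is not given in the sources used here. In the proteasome 20 of 41 genes rose and 4 fell (median 0.23, or 0.13 without the WT library of day 10; 34 and 0 on the deposited scale), and leaving out the KO library of day 10 or the WT library of day 12 took the falls to 2. Psmd8, a regulatory subunit, rose from 59.3, 54.4 and 61.2 to 169.6, 240.4 and 287 RPKM (1.51 ± 0.11), and Psmd5, Psmd11 and Psmd7 rose by 1.17, 0.65 and 0.66.

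Glutathione genes and known targets of NRF2, the factor that answers oxidants and electrophiles, rose in most cases: 37 of 48 were higher and 3 lower (median 1.20; 41 and 1 on the deposited scale). Srxn1, which repairs oxidized peroxiredoxins, had 16.1, 13.2 and 16.5 RPKM in WT and 144, 234 and 208 in KO (3.21 ± 0.19, adjusted p = 7.98e-13). Ugdh, which makes the sugar for glucuronidation, stood at 36.9, 38.6 and 41.7 in WT and 251, 282 and 339.8 in KO (2.44 ± 0.17), and the autophagy adaptor Sqstm1 at 149, 132 and 152 and 618, 728 and 682 (1.78 ± 0.13). Cbr3, a carbonyl reductase, went from 0.472, 0.354 and 0.536 to 15.4, 24.8 and 24.9 RPKM (5.12 ± 0.41). The KO livers lay above WT for all 4. The 3 falls were Gsta3, Gstt3 and Mgst1, of which only 1 remained when the WT library of day 11, the WT library of day 12 or the KO library of day 12 was left out.

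Drug-metabolising enzymes went both ways, with 20 of 52 higher and 14 lower (median 0.16; 26 and 7 on the deposited scale; 9 falls without the KO library of day 12). Their median was -0.07 without the WT library of day 10, -0.01 without the KO library of day 10 and 0.09 without that of day 11. Cyp2a5, an NRF2-responsive P450, had 60, 73.3 and 72.5 RPKM in WT and 1358, 3132 and 2602 in KO (4.58 ± 0.38, adjusted p = 2.72e-10), though reads may be shared with its close copy Cyp2a4. Ugt2b35, a glucuronosyltransferase, rose (1.89 ± 0.15), while the sulfotransferase 2810007J24Rik (Sult2a8 in RefSeq) fell from 138, 312 and 316 to 55.1, 27.9 and 30.7 RPKM (-3.17 ± 0.37). Cyp2c54, another P450, fell (-1.60 ± 0.22). Genes normally strongest around the central vein rose in 19 of 25 cases and fell in 2 (median 0.79; 19 and 0 on the deposited scale; 5 falls without the WT library of day 10, 4 without the KO library of day 10 and 1 without the KO library of day 12). The transporters Slc1a4 (3.33, 4.47 and 2.49 against 32.2, 50.6 and 50.2 RPKM, 3.26 ± 0.21), Rhbg (2.29 ± 0.23) and Slc13a3 (2.10 ± 0.30) and the secreted protein Lect2 (1.49 ± 0.20) led that list. Not every zonal gene went this way: of the P450s, Cyp2e1 (central) was lower and Cyp2f2 (portal) higher.

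Targets of p53 and apoptosis genes rose in 25 of 31 cases and fell in 2 (median 1.29; 28 and 1 on the deposited scale). Aen, a nuclease induced by p53, had 5.09, 4.33 and 4.65 RPKM in WT and 26.3, 35.3 and 40 in KO (2.38 ± 0.16, adjusted p = 6.15e-12). Mdm2, the ubiquitin ligase that limits p53, went from 10.9, 8.13 and 9.71 to 45.8, 49.3 and 70.4 RPKM (2.06 ± 0.17), and Ccng1, a cyclin that p53 induces, from 14.7, 11.2 and 13.1 to 57.4, 80 and 88.4 (2.07 ± 0.15). Phlda3, an inhibitor of AKT, stood at 1.69, 0.703 and 0.426 in WT and 15.7, 28 and 31.8 in KO (4.47 ± 0.40). All 4 were highest in the KO liver of day 12, and no KO value overlapped WT. The list median was 0.91, 1.50 and 1.60 on days 10, 11 and 12. Cdkn1a, the cell cycle inhibitor p21, had 13.1, 10.8 and 7.13 RPKM in WT and 45.2, 75.5 and 102 in KO (2.36 ± 0.30). The falls were Sesn1 and Bmf, 1 of which was lost without the WT library of day 12.

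The unfolded protein and integrated stress response list had 15 of 37 genes higher and 2 lower (median 0.39; 26 and 1 on the deposited scale). Ddit3, which encodes CHOP, had 4.87, 3.81 and 4.27 RPKM in WT and 35.7, 51.9 and 58.6 in KO (3.03 ± 0.30, adjusted p = 7.29e-09). Atf3 stood at 1.53, 0.569 and 0.496 and 5.89, 9.55 and 8.82 (2.94 ± 0.27), and Psat1, a serine synthesis enzyme under ATF4 control, at 1.41, 0.615 and 0.452 and 5.08, 6.65 and 15.5 (3.01 ± 0.31). Sesn2, a stress-induced regulator of growth signalling, rose by 1.82 ± 0.18. Among the list's chaperone and protein folding genes, Hspa5, Hsp90b1, Calr, Pdia3, Pdia4 and Hyou1 were not called, while Canx, Pdia6, Dnajb9 and Creld2 rose. The falls were Atf5 and Herpud1, 1 of which was lost without the WT library of day 11 or the KO library of day 12. On day 0 this list's median was -0.59. Immediate early and AP-1 genes rose in 16 of 25 cases with no falls (median 1.24; 18 and 0 on the deposited scale; 1 fall without the WT library of day 12), and their day 0 median was 0.54. Jun had 3.44, 1.95 and 1.96 RPKM in WT and 16.3, 19.8 and 25 in KO (2.64 ± 0.34). Tgfa, a ligand of the EGF receptor, had 2.26, 2.73 and 3.73 and 18.6, 25.8 and 37.2 (2.75 ± 0.16, adjusted p = 1.13e-12), and Klf6 rose by 1.49 ± 0.18.

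Amino acid breakdown and the urea cycle were lower in KO: 22 of 36 genes fell and 4 rose (median -0.74; 15 and 7 on the deposited scale). Sds, which deaminates serine, had 389, 152 and 173 RPKM in WT and 14.2, 10 and 20.5 in KO (-4.37 ± 0.39, adjusted p = 1.01e-09). Amt, a subunit of the glycine cleavage system, went from 53.5, 57.9 and 55.1 to 14.5, 9.46 and 12.1 RPKM (-2.68 ± 0.20). The urea cycle enzyme Otc stood at 159, 164 and 184 and 104, 64.5 and 65.5 (-1.60 ± 0.14), and Prodh2, which breaks down hydroxyproline, fell (-1.76 ± 0.16). Genes normally strongest around the portal vein, a list that shares Sds and Alb with others, fell in 14 of 25 cases and rose in 7 (median -0.81; 11 and 9 on the deposited scale). Hal, the first enzyme of histidine breakdown, had 227, 132 and 182 RPKM in WT and 63.5, 25.9 and 19.8 in KO (-2.91 ± 0.32), and Uox, which degrades urate, fell (-1.52 ± 0.15).

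In methionine, choline and transsulfuration metabolism 13 of 28 genes fell and 8 rose (median -0.51; 8 and 10 on the deposited scale), and the rises dropped to 4 without the WT library of day 10 and to 5 without the KO library of day 11. Bhmt, which remethylates homocysteine from betaine, had 2037, 1509 and 2089.7 RPKM in WT and 687, 555 and 270.1 in KO (-2.44 ± 0.22, adjusted p = 1.09e-09). Cbs, the first step of transsulfuration, stood at 524, 356 and 339 and 174, 154 and 194 (-1.65 ± 0.16), and Mat1a, the hepatic methionine adenosyltransferase, at 650.3, 626 and 634 and 371, 235 and 337 (-1.49 ± 0.19). Of genes for glucose production and use, 11 of 30 fell and 6 rose, 56.7% called against 56.3% of all tested genes. Their median was -0.18, or -0.07 without the WT library of day 12, with 8 falls and 10 rises on the deposited scale. The glycolytic gene Aldoa had 42.2, 33.4 and 40.7 RPKM in WT and 108, 139.8 and 143 in KO (1.30 ± 0.13). Pfkfb3, which makes an activator of glycolysis, had 1.56, 1.11 and 1.29 and 5.55, 9.96 and 8.29 (2.11 ± 0.34), so the KO livers lay above WT for both genes.

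Cholesterol synthesis and uptake had no rises and 16 falls among 27 genes (median -0.74; 3 higher and 9 lower on the deposited scale). Tm7sf2, a sterol reductase, had 64.9, 59.5 and 69.7 RPKM in WT and 20.6, 8.62 and 5.33 in KO (-3.17 ± 0.25, adjusted p = 1.31e-10). Insig1, which holds back SREBP processing, stood at 89.1, 105 and 109 and 55.3, 38.2 and 40.6 (-1.64 ± 0.30), and Nsdhl, a sterol dehydrogenase (-1.44 ± 0.23), and the sterol carrier Stard4 (-1.14 ± 0.16) fell as well. The list's median was -0.23 on day 10 and -0.91 and -1.06 on days 11 and 12. Bile acid genes fell in 14 of 30 cases and rose in 8 (median -0.59; 8 and 12 on the deposited scale). Baat, which conjugates bile acids, had 139, 146 and 144 RPKM in WT and 62.5, 44.5 and 29.9 in KO (-2.16 ± 0.13, adjusted p = 2.35e-12). Slc10a1, the uptake carrier NTCP, went from 206, 265 and 316 to 129, 79.8 and 75.3 RPKM (-1.94 ± 0.17). The exporters Abcc4 (1.93, 0.902 and 1.16 against 14.2, 31.9 and 20 RPKM, 3.60 ± 0.35) and Abcb4 (46.4, 51.8 and 63 against 219, 237 and 233 RPKM, 1.66 ± 0.21) rose.

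Fatty acid synthesis genes fell in 8 of 24 cases and rose in 2 (median -0.18; 3 and 6 on the deposited scale); the falls numbered 5 without the KO or WT library of day 11 or the WT library of day 12, and the rises 0 without the WT library of day 10. The median ran from -0.45 without the WT library of day 10 to -0.04 without that of day 12. Dgat1, which forms triglycerides, had 9.08, 8.01 and 7.43 RPKM in WT and 3.11, 1.71 and 1.31 in KO (-2.54 ± 0.16, adjusted p = 3.55e-12), and Thrsp, a lipogenic nuclear protein, had 179, 165 and 210.0 and 77, 34.5 and 18 (-2.79 ± 0.57). Fads1, a desaturase, fell (-1.18 ± 0.27). Slc25a1, the citrate carrier, was lower only after centring (-0.64 ± 0.17), and not without day 11. For lipid droplets and fatty acid handling 15 of 32 genes fell and 9 rose (median -0.28, or -0.16 without the WT library of day 11; 8 and 14 on the deposited scale). Slc27a4, a fatty acid carrier whose promoter site is shown above, had 9.33, 9.38 and 9.14 RPKM in WT and 2.91, 2.34 and 2.99 in KO (-2.21 ± 0.12, adjusted p = 4.14e-13). Lipc, hepatic lipase, fell (-1.16 ± 0.13), and Acsl4, an acyl-CoA synthetase for long polyunsaturated chains, rose by 1.36 ± 0.13. Peroxisome genes and PPAR-alpha targets fell in 17 of 35 cases and rose in 2 (median -0.32; 8 and 10 on the deposited scale; 11 falls without the KO library of day 12). Without the WT library of day 10 there was 1 rise, and without that of day 12 the median was -0.21. Hacl1 (168, 189 and 149 against 72.9, 43.5 and 33.4 RPKM, -2.28 ± 0.20) and Acaa1a (-1.64 ± 0.15), both enzymes of peroxisomal oxidation, led the list.

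Secreted hepatocyte proteins as a list stayed near the median gene, with 9 of 40 lower and 3 higher (median -0.12; 3 and 16 on the deposited scale; 4 falls without the KO library of day 12 and 5 without the WT library of day 12). Alb, the most abundant transcript in WT, had 71644, 61241 and 59527 RPKM in WT and 6108, 4349 and 4558 in KO (-4.14 ± 0.53, adjusted p = 4.36e-07), so each KO liver lay far below each WT liver. Outside days 10 to 12 the level of Alb ranged from 14379 to 71196 RPKM in 22 WT males and from 990.3 to 42693 in 23 KO males, and on day 0 it was 24306 and 33697 in WT and 15824 and 16937 in KO. Serpina3k, a serpin with close copies, fell (-0.85 ± 0.23; adjusted p = 0.071 with the 6 libraries alone), and the clotting factor F12 rose by 0.67 ± 0.12. F7, another clotting factor, passed only after centring (-0.73 ± 0.18). Of 26 hepatocyte transcription factors 6 fell and 3 rose, 34.6% against 56.3% of all tested genes (median -0.22, with 1 and 8 on the deposited scale). The falls numbered 9 without the WT library of day 10 and 3 without that of day 11. The median was -0.14 without that library or the KO library of day 12. Hlf, a PAR bZIP factor, had 9.27, 11.3 and 10.4 RPKM in WT and 6.68, 7.4 and 6.08 in KO (-1.07 ± 0.14). Klf15, Rxra and Nr1h4 were lower by 0.75, 0.57 and 0.49 on the centred scale alone, the RPKM of Nr1h4 overlapped between the groups, and its call was lost without the WT library of day 11.

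Growth hormone targets and male-biased genes fell in 16 of 37 cases and rose in 6 (median -0.81; 11 and 10 on the deposited scale; 10 falls and a median of -0.29 without the WT library of day 11). Stat5b, the factor that carries the growth hormone signal, had 31.2, 21.5 and 27.1 RPKM in WT and 18.1, 14.4 and 14.7 in KO (-1.20 ± 0.13, adjusted p = 1.55e-08). Serpina1e (-2.89 ± 0.28) and Nudt7 (-1.51 ± 0.19) fell, while Mup20, a major urinary protein, rose from 145, 419.6 and 425 to 2297, 3074 and 3780.5 RPKM (2.89 ± 0.37). Mup and Serpina1 genes have near-identical copies, so reads may be shared among them. Its median was 0.03, -0.96 and -0.75 on days 10, 11 and 12. Acute phase genes had 7 rises and 3 falls among 30, below the shares of all tested genes (median 0.16; 12 and 2 on the deposited scale). The median was 0.46 without the WT library of day 10, 0.26 without the KO library of day 10 and 0.09 without the WT library of day 11. Orm2 went from 131, 66.5 and 72.9 to 799, 618 and 1627 RPKM (2.99 ± 0.65) and Orm3 rose by 4.58 ± 0.75, whereas Crp had 289, 261 and 269.6 RPKM in WT and 116, 113 and 61.3 in KO (-2.00 ± 0.17), and Saa4 fell (-1.40 ± 0.23).

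Fetal and oncofetal liver genes had the highest median of all lists tested with 10 or more genes, 2.26. In this list 14 of 18 were higher and 1 lower (16 and 0 on the deposited scale). Only these 18 of its 25 genes were tested. A gene near 0 in WT could pass the filter through its KO libraries alone. Igf2, Igf2bp3, Dlk1, Hmga1 and Hmga2 did not pass it, so the filter favours rises in this share and median. Afp, the fetal counterpart of albumin, had 1.57, 1.3 and 1.55 RPKM in WT and 8.41, 8.61 and 27.1 in KO (2.64 ± 0.30, adjusted p = 4.81e-08). Prom1, a surface marker of progenitor cells, went from 0.306, 0.379 and 0.244 to 7.56, 7.88 and 19.2 RPKM (4.65 ± 0.46), and Golm1, a Golgi protein, from 2.01, 0.972 and 1.58 to 6.8, 6.08 and 12.9 (2.03 ± 0.23). The highest KO value of each was that of day 12, and the list median was 1.63, 2.11 and 2.94 on days 10, 11 and 12. The fall was Peg3, lost without the KO library of day 11. Duct and progenitor genes rose in 16 of 24 cases with no falls (median 1.47; 19 and 0 on the deposited scale; 1 fall without the WT library of day 10). Krt8 had 92.6, 60.3 and 89 RPKM in WT and 360.4, 776 and 989 in KO (2.59 ± 0.14, adjusted p = 1.96e-13), and Krt18 had 134, 80.7 and 99.7 and 363, 695 and 882 (2.12 ± 0.15). Both keratins are also made by hepatocytes. Tnfrsf12a, the TWEAK receptor, went from 4.16, 3.96 and 3.58 to 42.3, 67.2 and 133 RPKM (3.77 ± 0.32), and Sox9, a duct transcription factor, from 1.26, 0.765 and 1.07 to 4.35, 5.1 and 6.82 (1.95 ± 0.19). The 6 duct markers Krt7, Krt19, Sox9, Epcam, Spp1 and Cftr summed to 31.9 to 47.1 RPKM in WT and 101 to 272 in KO, with the highest sum on day 12. Spp1 made up most of each sum (28.7 to 42.0 RPKM in WT, 91.8 to 249 in KO). It is also on the list of recruited macrophages below. Of the 5 duct markers tested, 3 rose, and Krt7 and Krt19 were not called. The part of duct cells in these results was not tested.

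**Figure D4:**
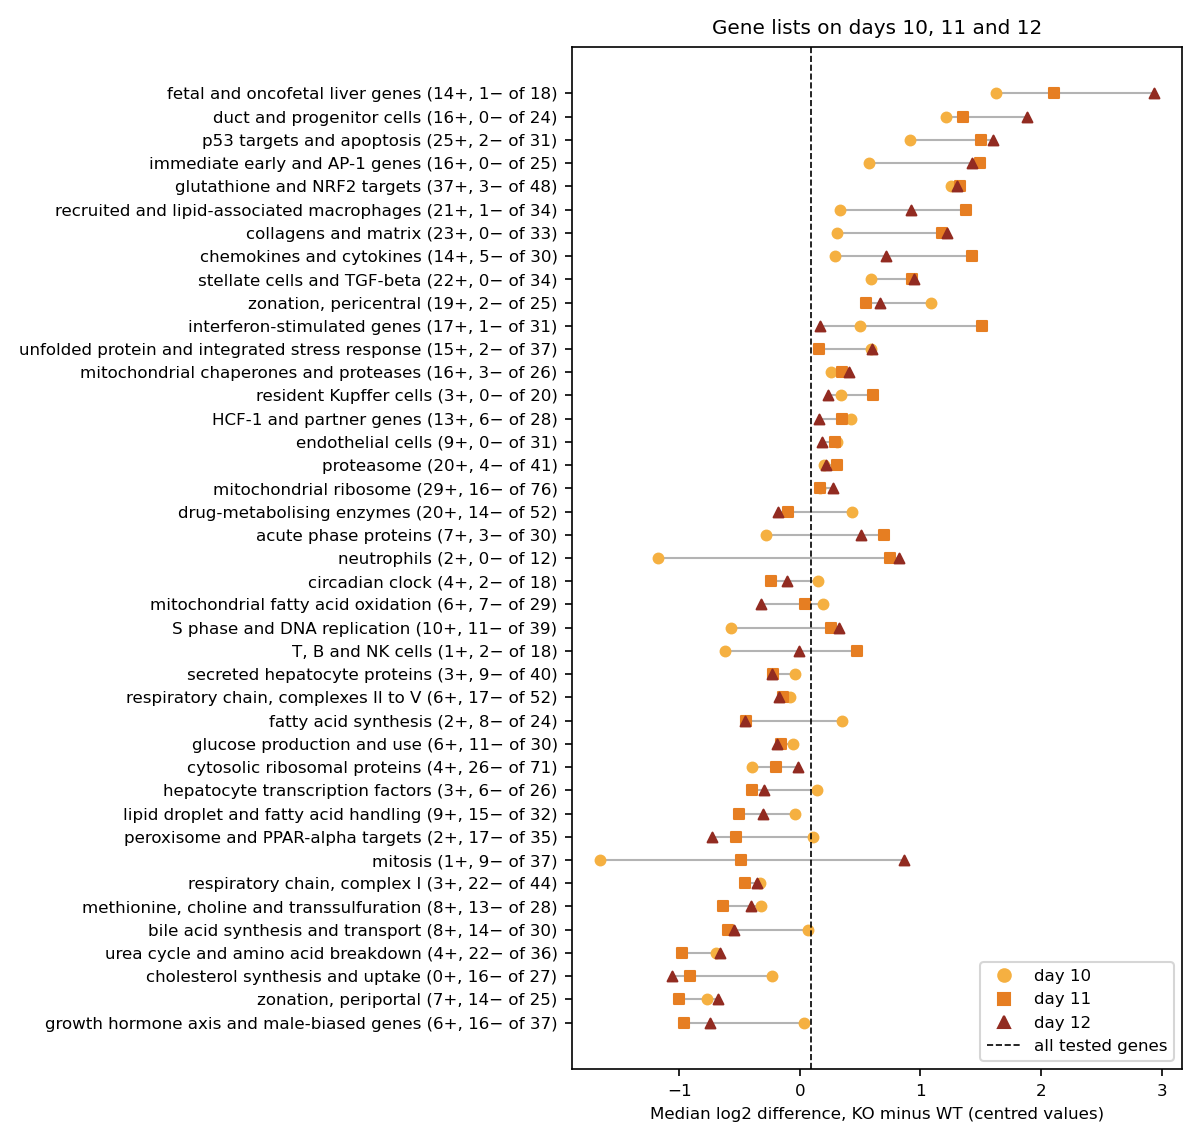
Median log2 difference, KO minus WT, of each list with 10 or more tested genes on days 10, 11 and 12, with the counts of genes higher (+) and lower (−) in brackets; the dashed line is the median of all tested genes (0.09). The lists run from fetal genes (2.26) to the periportal and growth hormone lists (both -0.81), and mitosis spans the widest range of days, from -1.66 to 0.86.

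Lists of matrix genes and of cells other than hepatocytes are described next. In bulk liver, more cells of a type and more RNA per cell cannot be told apart. Collagens and matrix genes rose in 23 of 33 cases with no falls (median 0.93; 29 and 0 on the deposited scale). Col4a1, a basement membrane collagen, had 22.9, 10.3 and 12.3 RPKM in WT and 45.8, 46 and 46 in KO (1.24 ± 0.17), and the macrophage elastase Mmp12 had 0.214, 0.104 and 0.0778 and 2.07, 8.26 and 4.34 (4.68 ± 0.71). Col12a1 (2.45 ± 0.31) and Col8a1 (2.96 ± 0.39) rose from lower levels. Stellate cell and TGF-beta genes rose in 22 of 34 cases with no falls (median 0.82; 29 and 0 on the deposited scale). Tgfbr2, a TGF-beta receptor, went from 11.9, 6.4 and 10.6 to 37.2, 35.7 and 39 RPKM (1.55 ± 0.17), Tgfbr1 rose by 0.84 ± 0.11, and the growth factors Pdgfa (1.61, 2.09 and 2 against 9.54, 12.3 and 13.8 RPKM, 2.19 ± 0.23) and Pdgfc (1.34 ± 0.12) rose too. The 7 stellate and fibroblast markers summed to 111 to 160 RPKM in WT and 251 to 305 in KO, and 6 of them passed the test.

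Genes of recruited and lipid-associated macrophages rose in 21 of 34 cases and fell in 1 (median 0.97; 29 and 0 on the deposited scale). Cd14, the lipopolysaccharide co-receptor, had 4.52, 2.66 and 2.71 RPKM in WT and 16.3, 27.1 and 28.4 in KO (2.42 ± 0.23), and Cd9, a tetraspanin, had 16.3, 10 and 15.1 and 71.3, 81.9 and 87.5 (2.11 ± 0.26). S100a10 (1.59 ± 0.20) and the lysosomal protease Ctsd (0.96 ± 0.12) rose as well, and many cells besides macrophages make these. The fall, Fabp5, was lost without the KO library of day 11, either library of day 12 or the WT library of day 10. The 6 markers of other macrophages summed to 139 to 277 RPKM in WT and 280.0 to 398 in KO, and 5 of them passed the test. Resident Kupffer cell genes rose in only 3 of 20 cases (median 0.36, or 0.55 without the WT library of day 10; 14 and 0 on the deposited scale): Marco (47.5, 20 and 31 against 107, 204 and 90.2 RPKM, 1.57 ± 0.45), Il18bp (1.39 ± 0.25) and Cd5l (0.75 ± 0.30). The Cd5l call was lost without either library of day 11, the KO library of day 10 or the WT library of day 12, and the Marco call without both libraries of day 11. The 5 Kupffer markers summed to 243 to 476 RPKM in WT and 593 to 827 in KO. What part these cells had in the results of their lists was not tested. Chemokines and cytokines rose in 14 of 30 cases and fell in 5 (median 0.85; 19 and 2 on the deposited scale), but the rises numbered 7 without the KO library of day 11 and 9 without the WT library of day 11 or of day 12. Ccl2, which attracts monocytes, had 4.06, 1.55 and 1.48 RPKM in WT and 12.9, 36.5 and 15 in KO (2.74 ± 0.42), and Cxcl14 had 0.434, 0.858 and 1.25 and 12.2, 24.8 and 57.4 (4.61 ± 0.55). Ccl27a fell from 8.47, 6.25 and 7.05 to 2.06, 1.61 and 1.06 RPKM (-2.69 ± 0.21).

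Interferon-stimulated genes rose in 17 of 31 cases and fell in 1 (median 0.58; 27 and 0 on the deposited scale), and the KO liver of day 11 was the highest. Rsad2, an antiviral enzyme, had 9.87, 8.46 and 7.29 RPKM in WT and 57.5, 121 and 33.3 in KO (2.41 ± 0.28). Isg15 stood at 23.8, 16.7 and 19.3 and 64.5, 128 and 49 (1.46 ± 0.17), Oasl1 at 12.9, 11.3 and 11.2 and 39.5, 91.5 and 42.5 (1.74 ± 0.16), and the chemokine Cxcl10 at 7.36, 6.71 and 4.7 and 57.3, 99.4 and 19.8 (2.53 ± 0.24). Zbp1, a sensor of nucleic acids, rose by 1.68 ± 0.23. The list median was 0.50, 1.51 and 0.17 on days 10, 11 and 12, and without the KO library of day 11 it was 0.32 with 14 rises and 2 falls, and 0.92 without that of day 12, where the only fall with all libraries was Irgm1. On day 0 it was 0.45. Endothelial genes rose in 9 of 31 cases, a share near the 30.6% of all tested genes (median 0.28, 0.14 without the KO library of day 10 and 0.13 without the WT library of day 11; 19 and 0 on the deposited scale). There were 4 rises without the KO library of day 10 or the WT library of day 11 and 5 without the WT library of day 12, with 1 fall without the first or the second of these. Wnt2 (1.66 ± 0.51) and Rspo3 (0.72 ± 0.14), ligands of the central vein endothelium, rose, as did Plvap (0.65 ± 0.20) and Aqp1 (0.64 ± 0.21). The Wnt2 call was lost without the WT library of day 10, the Aqp1 call without the KO library of day 10 and the Plvap call without both libraries of day 11.

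Neutrophil and lymphocyte genes gave few calls. Of 12 tested neutrophil genes 2 rose. They were Il1b, a cytokine (3.72, 1.45 and 1.85 RPKM in WT, 5.53, 10.8 and 4.22 in KO, 1.11 ± 0.37), and Lcn2, a siderophore-binding protein also made by stressed hepatocytes (124, 17.9 and 12.9 RPKM in WT, 131, 357 and 352 in KO, 2.61 ± 1.02). Both calls were lost without either library of day 11, and that of Lcn2 also without either library of day 12. Of 18 genes of T, B and NK cells 1 rose and 2 fell. The rise was Ccl5, a chemokine of T and NK cells, with 6.99, 2.74 and 1.7 RPKM in WT and 7.71, 27.4 and 7.33 in KO (1.41 ± 0.36), and it was lost without the KO library of day 11. Cd4 and Cd79b passed only after centring (-0.80 and -0.75), and neither without the KO library of day 12. Without the WT library of day 10 there were 3 rises and 1 fall, and the median went from 0.00 to 0.36. The neutrophil median was 0.14, or 0.54 without that library. Circadian clock genes rose in 4 of 18 cases and fell in 2 (median 0.04; 5 and 1 on the deposited scale; 2 rises and a median of -0.18 without the WT library of day 10, 4 falls and a median of -0.10 without the KO library of day 10). Bhlhe40 rose from 16.8, 14.1 and 14.7 to 42.3, 35.5 and 39 RPKM (0.91 ± 0.23), Clock was lower only after centring (-0.48 ± 0.12), and Ciart had 0.0443, 0.165 and 0 RPKM in WT and 0.237, 0.145 and 0.362 in KO, levels that overlapped. On the carry-over list 2 of 3 tested genes rose, Cyp2c55 (1.29, 1.03 and 1.52 against 14.8, 9.15 and 6.22 RPKM, 2.46 ± 0.56), a P450, and Cidea (0, 0 and 0.0603 against 0.596, 0.347 and 0.39 RPKM), a lipid droplet protein. The Cidea call was lost without any 1 of 5 of the 6 libraries, the exception being the WT library of day 12.

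In mitosis 9 of 37 genes fell, a share near the 25.7% of all tested genes, and 1 rose (median -0.36), but the medians of days 10, 11 and 12 ran from -1.66 through -0.49 to 0.86. On the deposited scale 1 fell and 1 rose. The rise, Kif23, was lost without either library of day 12, the KO library of day 11 or the WT library of day 11. Without the WT library of day 10 the falls dropped to 2 and the median turned to 0.11. They numbered 5 without the KO library of day 10 or of day 11 and 14, with a median of -0.86, without the WT library of day 12. Without that of day 11 the median was -0.57. Nek2, a centrosome kinase, had 5.21, 1.66 and 1.66 RPKM in WT and 0.996, 0.867 and 1.48 in KO (-1.61 ± 0.36), and was highest in the WT liver of day 10, the library in which neutrophil markers were also highest. The part of that library's other cells was not tested. Cdca3 had 10.3, 2.5 and 1.75 and 1.75, 1.74 and 2.92, Spc25 9.7, 5.44 and 3.41 and 3.13, 2.95 and 5.93, and both overlapped between the groups and passed only after centring, as did Spc24 (6.23, 3.87 and 3.49 against 3.8, 2.85 and 2.88 RPKM). The calls of Cdca3 and Spc25 were lost without the WT library of day 10. For S phase and DNA replication 10 of 39 genes rose and 11 fell (14 and 4 on the deposited scale), shares near those of all tested genes (30.6% and 25.7%). The list's median lay between -0.17 without the WT library of day 11 and 0.23 without that of day 10. Tk1, thymidine kinase, had 26, 24.7 and 18 RPKM in WT and 10.9, 8.41 and 7.63 in KO (-1.80 ± 0.21), and Prim1, a primase subunit, had 5.46, 2.88 and 2.47 and 0.863, 1.13 and 1.28 (-2.10 ± 0.26). Ccnd1, cyclin D1, rose from 31.8, 18.1 and 21.9 to 82.4, 112 and 113 RPKM (1.67 ± 0.23).

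Whether the difference between KO and WT changed within the window was asked with limma's F test over the 3 days. It called 30 of 12222 genes (0.245%). Unadjusted p values fell under 0.05 for 1143 (9.35%). Pank1, which starts coenzyme A synthesis, had differences of -0.77, -2.00 and -2.76 on days 10, 11 and 12 (adjusted p = 0.000399), from 29.7, 14 and 11 RPKM in KO and 43.1, 37.6 and 51.3 in WT. Hsd11b1, which regenerates active glucocorticoid, went from 196, 274 and 365 RPKM in WT to 273, 151 and 132 in KO, differences of 0.25, -1.43 and -2.00 (adjusted p = 0.0172). Ttc39c (0.01, -1.67 and -1.85), Lrit1 (-0.57, -2.60 and -3.18), Tmie (0.20, -1.43 and -2.32) and the pseudogene Marcksl1-ps4 (0.18, -1.62 and -2.24) also had their steepest falls on day 12. Gm4952 moved the same way (-1.59, -3.93 and -4.44), while Tubb6, a beta tubulin, rose further from day to day (1.14, 3.32 and 3.54). Slc39a11, a zinc transporter, was lowest on day 11 (-0.30, -1.91 and -0.44), and Ncald, a calcium sensor, changed from above to below WT (0.51, 0.06 and -0.90). Each of these 10 calls was lost when the libraries of 1 of the 3 days were left out. With 1 liver per genotype and day, these differences cannot be told apart from differences between mice.

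Set against days 7 to 9, which have 6 livers of each genotype, the difference between KO and WT was larger or smaller for 406 genes (3.32%), higher for 159 (1.3%) and lower for 247 (2.02%). On the deposited scale 472 genes differed, 422 higher and 50 lower. There 191 of the 406 kept their call, so many of these calls depend on the scaling. The count is also sensitive to single days: it was 53 without day 12, 131 without day 11 and 905 without day 10. Cyp2a5 had a difference of 1.33 on days 7 to 9 and 4.58 on days 10 to 12, a change of 3.25 ± 0.46 (adjusted p = 0.000189). Gstm3 (2.63 and 5.34), Cbr3 (2.52 and 5.12), Phlda3 (2.16 and 4.47) and Cyp2a4 (0.88 and 3.13) followed. Macrod1 deepened from -2.32 to -4.79, a change of -2.46 ± 0.30 (adjusted p = 4.07e-05), and C730036E19Rik from -1.56 to -4.59. For 1810046K07Rik the differences were -0.23 and -3.15, for the citrate and succinate transporter Slc13a2 -0.49 and -2.97, and for Flrt1 2.66 and 0.22. Of these 10 genes Cyp2a5, Cbr3 and Macrod1 kept their call without any 1 of the 3 days. Flrt1 lost it without each of them, Gstm3 without day 11, C730036E19Rik without day 12, and the other 4 without day 11 or day 12. Among lists, 9 of 48 glutathione and NRF2 genes, 8 of 52 drug-metabolising enzymes and 6 of 31 p53 genes were higher against days 7 to 9 (17, 10 and 7 on the deposited scale). Of 36 urea cycle and amino acid genes 6 were lower, but only 1 on the deposited scale.

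Days 13 to 14, with 3 KO and 2 WT livers, were compared with days 10 to 12 in the same way. The difference between KO and WT was higher for 841 genes (6.88%) and lower for 1909 (15.6%), 2750 in all (22.5%), and 1417 without day 10. On the deposited scale 6423 were higher and 416 lower. There 1257 of the 2750 kept their call, so many of these calls depend on the scaling. Mitosis genes were higher in 31 of 37 cases (36 on the deposited scale). Their median went from -0.36 (0.11 without the WT library of day 10) to 2.50, and on day 0 it was 0.46. Birc5, an inhibitor of apoptosis needed in mitosis, changed from -1.13 on days 10 to 12 to 2.76 (3.90 ± 0.52, adjusted p = 7.2e-06), and Ccnb1, cyclin B1, from -1.23 to 3.04. Aldh1l2, a mitochondrial folate enzyme, went from 0.93 to 6.06, with 0.269, 0.241 and 1.37 RPKM in the KO livers of days 10, 11 and 12. Fam83d (-0.52 to 3.34) and Tcf24 (-3.01 to 1.87) were the other 2 of the 5 largest rises, that of Tcf24 being lost without day 10.

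Lists of hepatocyte functions had lower centred medians on days 13 to 14, with fewer calls on the deposited scale. Secreted proteins were lower in 30 of 40 cases (median -0.12 to -1.13), but in 9 on the deposited scale. Drug-metabolising enzymes were lower in 32 of 52 cases (0.16 to -1.21), with 21 lower and 4 higher on the deposited scale. Amino acid and urea cycle genes were lower in 26 of 36 (-0.74 to -2.05), with 11 lower and 3 higher on the deposited scale, and cholesterol genes in 19 of 27 (-0.74 to -2.34), with 10 lower and 1 higher. Cyp8b1, which sets the mix of bile acids, had 129, 220.5 and 179.6 RPKM in WT and 191, 104 and 41.2 in KO on days 10 to 12, and its difference went from -1.33 to -7.02 (-5.69 ± 0.39, adjusted p = 4.04e-10). Leap2, a secreted peptide that opposes ghrelin, had 55.2, 80.8 and 66.1 RPKM in WT and 16, 7.97 and 3.56 in KO and changed from -3.56 to -8.18. Inmt, a methyltransferase, had 465, 485 and 568 and 194, 131 and 31.7 and changed from -2.89 to -7.39. Hsd3b5, a male-biased steroid dehydrogenase (-1.54 to -6.61), varied widely among the WT livers with 0.237, 12.6 and 8.11 RPKM and lost its call without day 10 or day 12, and 1810046K07Rik went from -3.15 to -8.50. This comparison and the one with days 7 to 9 share the 6 libraries of days 10 to 12.

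**Figure D5:**
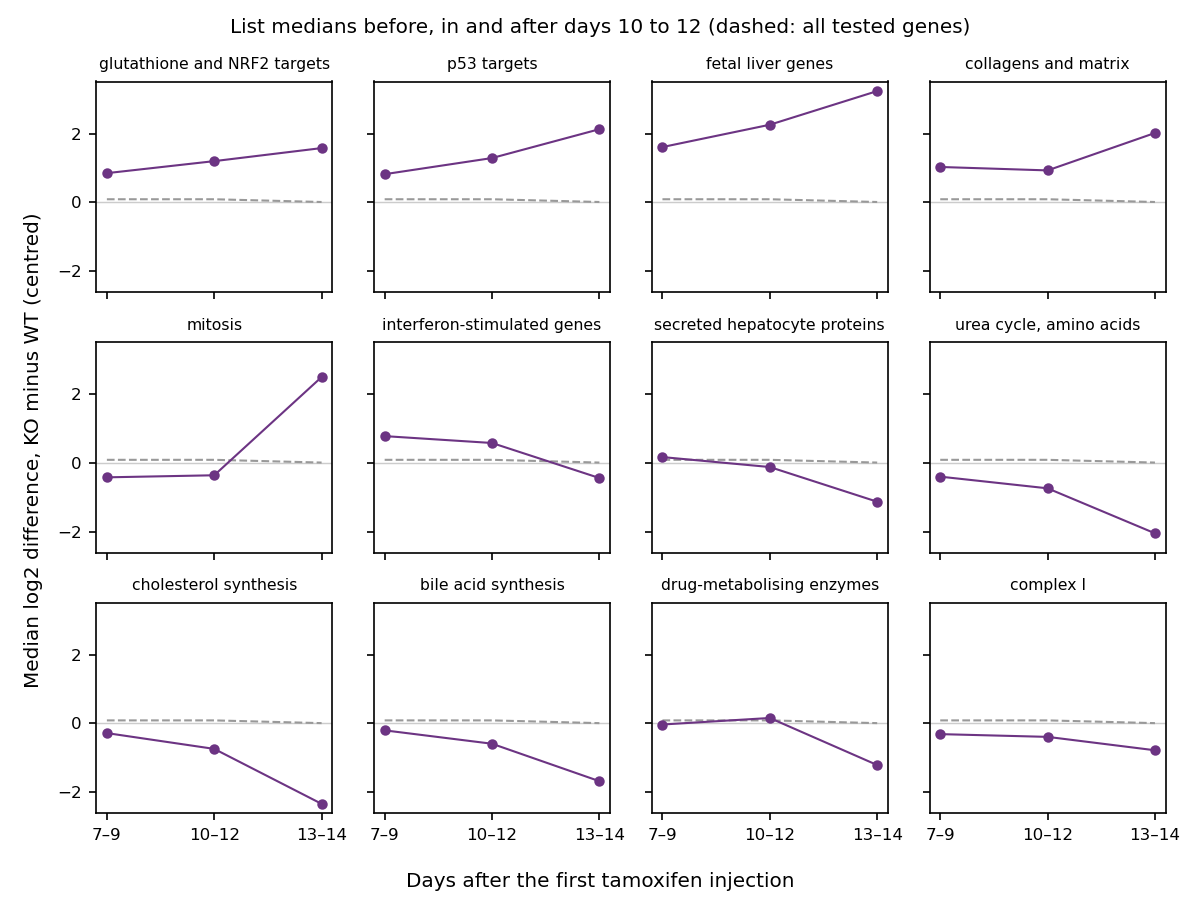
Median log2 difference, KO minus WT, of 12 lists on days 7 to 9, 10 to 12 and 13 to 14 after the first tamoxifen injection (points), with the median of all tested genes dashed. On days 10 to 12 the glutathione, p53 and fetal lists are high (1.20, 1.29 and 2.26). The mitosis median is -0.36 on days 10 to 12 (0.11 without the WT library of day 10) and 2.50 on days 13 to 14, and those of the drug enzymes and secreted proteins are 0.16 and -0.12 on days 10 to 12 and -1.21 and -1.13 on days 13 to 14.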

How the data were processed

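Liver poly(A) RNA of single mice was sequenced as 50-nucleotide single reads from strand-specific libraries, per the labels' protocols. The authors deposited 1 table of log2 RPKM values for 15616 genes in 63 libraries, and the submitters' processing notes name TopHat2 2.0.13, Bowtie 1.1.2, edgeR and the mm9 build, without saying which step each served. A value of 0 RPKM stands in the deposited table as a log2 of -13.4557, which matches a constant of 8.9e-05 added before the logarithm. Read counts were not used here. The spacing of low values gave an estimate of 18.1 to 47.0 M reads in genes for the 6 libraries, where 1 read on 2 kilobases is worth 0.0155 to 0.0351 RPKM, and these depths cover counting error only.

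Values were centred on each library's median over all genes. Of the genes, 12222 were tested, those with a deposited log2 value of at least 0 in 3 of the 6 libraries or in 4 of the 51 male libraries. A gene near 0 in WT could thus be tested through the 3 KO libraries alone. limma 3.58.1 in R 4.3.3 fitted 1 mean for each genotype and day of the male libraries, with an intensity trend (21 residual degrees of freedom). KO minus WT was averaged over days 10, 11 and 12, all tests were two-sided, and the Benjamini-Hochberg adjustment ran over all tested genes, with a threshold of 0.05. The same fit gave the F test among the days and the comparisons with days 7 to 9 and days 13 to 14, 4 tests in all. Python 3.11.15, pandas 2.3.3 and numpy 2.4.6 made the summaries. Per gene, coordinates are those of mm9, matched for 14907 genes (95.5%), and promoters are RefSeq sequences of GRCm38.p6.

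Genes were named by rule: the 12 largest rises and falls with 1 sign on all days, at least 1 RPKM in the higher genotype and no library at 0; 5 genes each way that were listed at 0; up to 4 genes of smallest p from each of 42 lists; and the 5 largest each way, or for the F test the 10 smallest p, of the other comparisons. Genes listed as the few falls or rises of a list, such as Gsta3, Sesn1, Cox10 and Cdkn1a, were chosen after their values were seen. A few genes that the rule named are not reported here. The members, lists and tests were chosen with earlier results of these data known. Alternatives were other scalings and pseudocounts, other filters, the 6 libraries alone, a replicate block, and leaving out libraries or days.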

Additional observations from a re-analysis of the deposited data

Results flagged for a closer look

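Each gene here is one whose difference between KO and WT itself differed between days or groups of days by limma's test, on the log2 scale after centring. From days 7 to 9 to days 10 to 12 the difference moved up by 3.25 for Cyp2a5, 2.71 for Gstm3, 2.60 for Cbr3, 2.31 for Phlda3 and 2.25 for Cyp2a4. It changed by -3.02 for C730036E19Rik, -2.92 for 1810046K07Rik, -2.48 for Slc13a2, -2.46 for Macrod1 and -2.43 for Flrt1.

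From days 10 to 12 to days 13 to 14 it changed by 5.13 for Aldh1l2, 4.88 for Tcf24, 4.27 for Ccnb1, 3.90 for Birc5 and 3.86 for Fam83d. It changed by -5.69 for Cyp8b1, -5.35 for 1810046K07Rik, -5.06 for Hsd3b5, -4.62 for Leap2 and -4.51 for Inmt.

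Within days 10 to 12 the F test gave adjusted p values of 0.000399 for Pank1, 0.000765 for Marcksl1-ps4, 0.00289 for Ttc39c, 0.0054 for Lrit1 and 0.00598 for Tmie. It gave 0.00621 for Tubb6, 0.00675 for Slc39a11, 0.00697 for Gm4952, 0.0172 for Hsd11b1 and 0.0212 for Ncald.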

How the results depend on the processing

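The count of genes that differed between KO and WT on days 10 to 12 (6881) stayed within 1.5 times of that value under every alternative run, from 5441 with the 6 libraries alone and day as a block to 7776 on the deposited scale. Leaving out single libraries or days gave 5448 to 6655. The scale sets the direction of many small differences: the deposited values gave 6426 higher and 1350 lower genes, and 13 of the 190 named genes then lost their call. The single named gene whose sign turned was Ciart, at -0.14 on the log2(RPKM + 1) scale (adjusted p = 0.5172). The F test among days (30 genes) gave 12 on the deposited scale, 118 with quantile normalization, 50 with log2(RPKM + 1), 98 with no filter on low values, and 9 to 62 with 1 day left out. The comparison with days 7 to 9 (406 genes) gave 472 on the deposited scale, where 191 of the 406 kept their call, 925 with quantile normalization, 805 with log2(RPKM + 1), 224 without days 0 to 2, 196 with replicate 1 alone for days 7 to 9, and 53 to 905 with 1 day left out. The comparison of days 13 to 14 with days 10 to 12 (2750 genes) gave 6839 on the deposited scale and 1417 to 2938 with 1 day left out. The causes of these changes were not tested. Replicate numbers on days 0 to 9 gave correlations between same-numbered KO and WT livers of -0.055 to 0.286, so they were not taken to pair the samples. With the replicate number as a block the 4 counts were 7111, 24, 425 and 2849.

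With 1 liver per genotype and day, single days carry no replicate. Genes below about 1 RPKM rest on few reads, most of all in the WT library of day 12, which had 18.1 M reads in genes.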

Other observations

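A few secretory transcripts held a large share of all read density, and that share moved. Alb made up 13.6%, 12.5% and 11.8% of the summed RPKM in the WT livers of days 10, 11 and 12 and 1.04%, 0.731% and 0.745% in the KO livers. Trf, the iron carrier transferrin, held 1.69% to 1.75% in WT and 3.20% to 3.26% in KO, with 18786, 19393 and 19687 RPKM in KO (0.70 ± 0.28 after centring, adjusted p = 0.0363 by limma). Apoe, an apolipoprotein, had 8016, 8854 and 9647 RPKM in WT and 19128, 17598 and 17420 in KO (0.58 ± 0.25, adjusted p = 0.0460). Ftl1, the ferritin light chain, rose from 2012, 1722 and 1735 to 5162, 6358 and 6545 RPKM (1.27 ± 0.19), and Gstm1, a glutathione transferase with close copies, from 440, 599 and 690 to 4296, 7240 and 5948 RPKM (2.88 ± 0.27).

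Falls among abundant transcripts included Fabp1, the liver fatty acid binding protein, with 4076, 4495 and 5987 RPKM in WT and 2683, 1314 and 1136 in KO (-2.04 ± 0.30), and Apoa2, an HDL apolipoprotein, at -1.11 ± 0.31. Apoa1 and Ahsg did not pass the test after centring (0.03 and 0.10). These genes were picked as the most abundant of either genotype.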
